A study of Mus musculus with 9 samples.

Results

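The lysosomal genes described here are 49 mouse genes for the membrane proteins and hydrolases of the lysosome, for progranulin and prosaposin, and for the transcription factors, sorting proteins and proton pump that serve the organelle. They were chosen by gene name, with earlier results of these data known. Each of the 49 names was found in the deposited count table of 55401 genes. All 49 were among the 16762 genes with enough counts to be tested. The cells were primary neonatal mouse ventricular myocytes (NMVMs), which are heart muscle cells taken from wild-type C57BL/6J pups at 1 day of age, and poly(A)-enriched RNA was sequenced. Control cultures stayed in normal oxygen in complete medium, DMEM with serum. Hypoxia cultures were washed and kept for 6 h in DMEM without glucose or serum inside a sealed AnaeroPack chamber, which takes up the oxygen. The hypoxia + rSRGN cultures had the same 6 h and, in addition, recombinant serglycin (rSRGN), a proteoglycan core protein, at a dose that the labels do not give. Each of the 3 groups had 3 libraries. Low oxygen, loss of glucose and loss of serum came together against control and cannot be told apart, and the labels do not say whether the libraries of a group came from separate isolations, so a p-value measures only the spread between these libraries, which may be technical.

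The lysosome is the acidic compartment in which cells break down proteins, glycans and lipids. Its hydrolases are made in the endoplasmic reticulum, receive a mannose 6-phosphate tag and are carried to the organelle by sorting receptors, and a proton pump, the V-ATPase, keeps its lumen acidic. Many lysosomal genes are targets of TFEB, TFE3 and MITF, related transcription factors that bind the CLEAR element, an E-box in promoters. The kinase mTOR, when active at the lysosome, keeps these factors in the cytoplasm. In heart muscle, lysosomes take part in the turnover of proteins and mitochondria, and progranulin, the product of Grn, is a secreted protein that also reaches the lysosome and is cut there.

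The promoter sequences are shown first, as a description. Many lysosomal genes are known targets of factors that bind the CLEAR element. A high share with an E-box core therefore follows from the kind of gene chosen and is no independent result. Windows from 250 bases before to 50 bases after the transcription start were taken from RefSeq (GRCm38.p6) for 42 of the 49 genes. These genes had 50 windows in all, so some had more than 1. In 43 of the 50, the bases after the start matched a transcript of the gene. Atp6v1h, Asah1, Ctsb, Sort1, Ctsh, M6pr and Galns had no window. The short core searched was CACGTG and the long core TCACGTGA. Both read the same on the other strand, and every long core contains a short one. The long core lay in windows of 8 of the 42 genes (19.0%), against 304 of 27025 genes with a window (1.12%), and the short core in 16 of 42 (38.1%), against 8.09%. The 27025 genes include many that had too few counts to be tested here. One stretch of sequence is printed below for each of the 8 genes with a long core, in the direction of the gene and with the long core in capitals. For Lamp1, the lysosomal membrane protein with 4 short cores close to its start, the short cores are in capitals.
Atp6v0d1: cctactgcggTCACGTGAgacgcggtgc
Atp6v1a: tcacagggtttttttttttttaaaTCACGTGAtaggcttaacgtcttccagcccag
Cln3: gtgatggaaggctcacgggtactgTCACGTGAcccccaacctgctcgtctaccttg
Ctsa: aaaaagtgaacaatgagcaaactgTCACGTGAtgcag
Ctsd: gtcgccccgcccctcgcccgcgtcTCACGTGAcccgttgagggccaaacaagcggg
Gla: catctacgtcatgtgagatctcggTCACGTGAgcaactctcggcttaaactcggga
Igf2r: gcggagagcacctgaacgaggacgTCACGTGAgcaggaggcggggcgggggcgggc
Mcoln1: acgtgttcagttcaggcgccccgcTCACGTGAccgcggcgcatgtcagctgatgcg
Lamp1: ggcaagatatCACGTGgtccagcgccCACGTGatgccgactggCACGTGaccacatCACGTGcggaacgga

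On the plus strand of GRCm38.p6, these stretches lie at chr2:164833736-164833772 for Ctsa, chr8:3500449-3500504 for Mcoln1 and chr8:13159090-13159160 for Lamp1. On the minus strand they lie at chr8:105566051-105566078 for Atp6v0d1, chr16:44139360-44139415 for Atp6v1a, chr7:126583327-126583382 for Cln3, chr7:142387895-142387950 for Ctsd, chrX:134601169-134601224 for Gla and chr17:12769724-12769779 for Igf2r. The long core began 99 bases before the start of Ctsd, the gene of the aspartic protease cathepsin D, and 46 bases before that of Mcoln1, the gene of the lysosomal calcium channel mucolipin 1. The 4 short cores of Lamp1 began 61, 45, 28 and 15 bases before its start. Ctsa, Gla and Igf2r each held a second long core, which is not printed. A match of letters describes the sequence only, and binding was not measured in these cells.

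Markers of the cell types that such a culture can hold were measured beside the lysosomal genes. Library totals were 21669017 to 22781557 counted fragments in control, 16583985 to 18148474 in hypoxia and 16640239 to 20826701 in hypoxia + rSRGN. The level of a gene is given as FPKM, its fragments normalised for exon length and for the scaled size of the library. The 10 cardiomyocyte markers summed to 11691 to 13958 FPKM in control, to 1017 to 1716 in hypoxia and to 2193 to 2512 in hypoxia + rSRGN, and none was at 0 in any library. All 10 fell in hypoxia, and their median was -3.66 on the log2 scale. Of the 10 fibroblast markers, 8 rose and none fell, and their sum went from 1181 to 1374 FPKM in control to 2442 to 2757 in hypoxia. Of the 12 macrophage markers, 11 were tested and 10 fell. Their sum was 167 to 176 FPKM in control, 15.4 to 18.1 in hypoxia and 18.8 to 23.3 in hypoxia + rSRGN, and Adgre1, C1qa, C1qc, Aif1 and Ptprc were at 0 in at least 1 hypoxic library. Of the 10 endothelial markers 7 fell and none rose, and of the 8 smooth muscle markers 2 fell and 1 rose. Among all genes tested, 26.4% were called higher in hypoxia and 25.1% lower. The smooth muscle shares, 12.5% higher and 25% lower, did not exceed these. In these bulk libraries, fewer cells of a type and less RNA per cell cannot be told apart, and the part of these markers in the results on lysosomal genes was not tested.

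**Figure D1:**
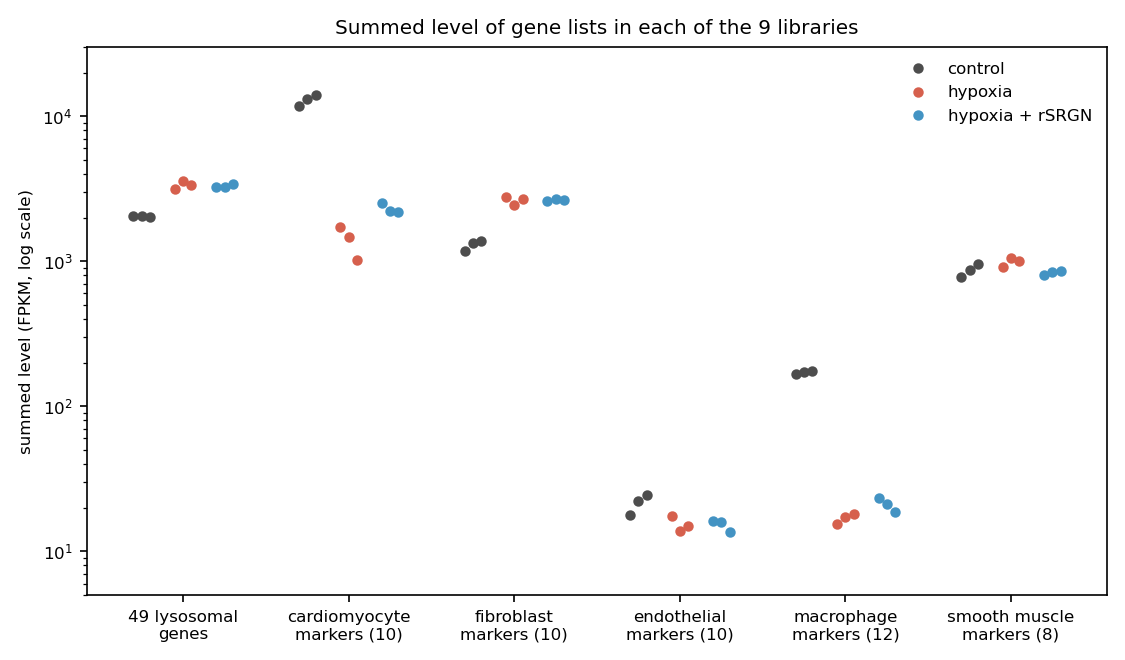
Summed level of the 49 lysosomal genes and of 5 marker lists in each of the 9 libraries, in FPKM on a log axis, with 1 point per library and colours for the 3 groups. The lysosomal sum lies at 2024 to 2066 FPKM in control and at 3143 FPKM or above in both hypoxic groups, while the cardiomyocyte and macrophage sums are lower in both hypoxic groups than in control.

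Hypoxia against control asks what oxygen, glucose and serum deprivation does to the lysosomal transcripts. The summed level of the 49 genes was 2042, 2066 and 2024 FPKM in the control libraries, 3143, 3552 and 3359 FPKM in hypoxia, and 3242, 3257 and 3400 FPKM in hypoxia + rSRGN. The 3 control libraries lay below all others, and the 2 hypoxic groups overlapped on this scale. When expressed as TPM, which holds the total over all genes equal between libraries, the sum was 5940 to 6195 in control, 8919 to 9478 in hypoxia and 9508 to 10092 in hypoxia + rSRGN, so that the hypoxic groups did not overlap on that scale. Per length, the highest mean levels in control were those of Psap at 271 FPKM, Ctsd at 254 FPKM and Lamp1 at 241 FPKM, and in hypoxia those of Lamp1 at 442 FPKM, Ctsd at 386 FPKM and Psap at 355 FPKM. The lowest in hypoxia were Mitf at 1.53 FPKM, Ctss at 1.84 FPKM and Tfeb at 2.17 FPKM.

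Of the 49 genes, 27 (55.1%) rose in hypoxia, 7 (14.3%) fell and 15 were not called. Calls required an edgeR quasi-likelihood p under 0.05 after Benjamini-Hochberg adjustment together with a change of 1.5-fold or more. Among all 16762 genes tested, 26.4% were called higher, 25.1% lower and 51.6% in either direction. The median log2 fold change of the 49 genes was 0.62, against 0.05 over all genes tested, and their changes ran from -4.33 to 1.67. Every hypoxia library lay above every control library for 34 of the 49 genes, and below for 10. Among all 16762 genes tested this held for 6317 and 5925, so such separation was common. The genes that rose were those of membrane proteins, hydrolases, progranulin and proton pump subunits. The genes that fell were Tfeb and Mitf, the sorting genes Sort1, Igf2r and Gnptab, and the hydrolase genes Ctss and Smpd1. The fibroblast markers moved up and the cardiomyocyte and macrophage markers down in the same comparison, by the values above.

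**Figure D2:**
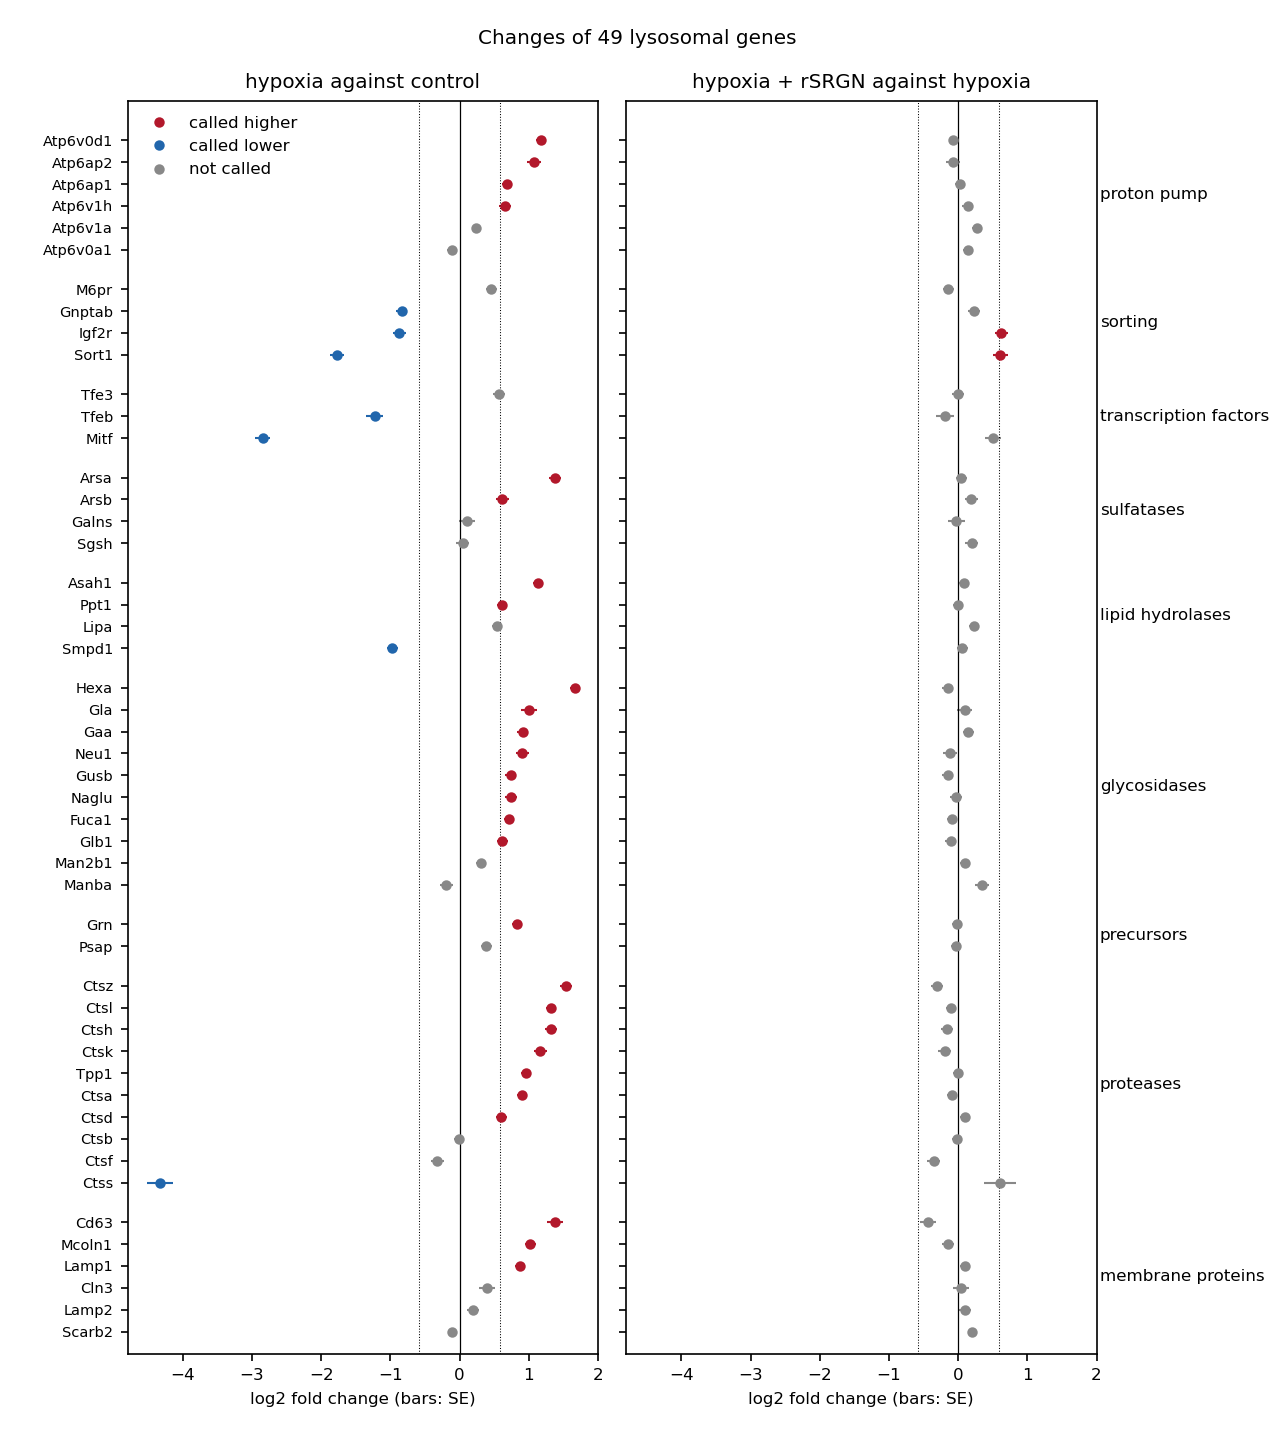
Log2 fold change of each of the 49 lysosomal genes, grouped by role, for hypoxia against control (left) and hypoxia + rSRGN against hypoxia (right), with bars for the SE, colours for the call and dotted lines at a 1.5-fold change. On the left 27 points are called higher and 7 lower, from Hexa at 1.67 to Ctss at -4.33, and on the right only Igf2r and Sort1 are called.

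**Figure D3:**
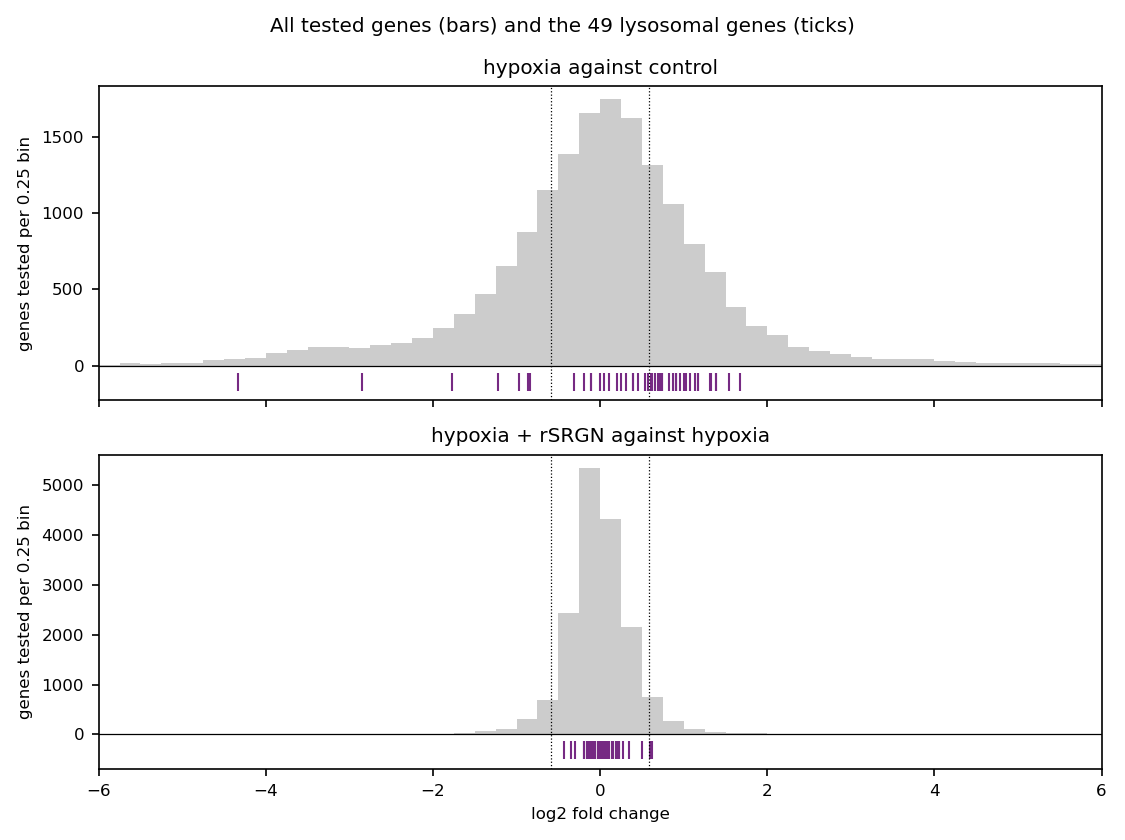
Distribution of the log2 fold changes of all genes tested (bars, genes per bin between -6 and 6) with the 49 lysosomal genes as ticks under the axis, for hypoxia against control and for hypoxia + rSRGN against hypoxia. The median of the lysosomal genes is 0.62 in the upper panel, where that of all genes is 0.05, and close to 0 in the lower panel.

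Of the 6 membrane protein genes, 3 rose and none fell. The share called, 50%, was near the 51.6% of all genes tested. Counts by role rest on 2 to 10 genes each and stand beside the 26.4% higher and 25.1% lower of all genes tested. Lamp1 and Lamp2 encode the heavily glycosylated proteins that line the lysosomal membrane. Lamp1 was at 251, 241 and 231 FPKM in control, at 421, 447 and 457 FPKM in hypoxia and at 457, 470 and 486 FPKM in hypoxia + rSRGN. Every hypoxic library lay above every control library, and the log2 fold change in hypoxia was 0.87 ± 0.07 (SE), with an adjusted p of 2.6e-10. Lamp2 was at 47.7, 42.0 and 47.5 FPKM in control, at 47.7, 60.5 and 49.1 FPKM in hypoxia and at 57.5, 56.6 and 54.2 FPKM in hypoxia + rSRGN. Its control and hypoxia libraries overlapped, and its log2 fold change of 0.20 had a 95% interval of 0.02 to 0.37 and was 0.08 without hypoxia replicate 2 and 0.12 without control replicate 2. Mcoln1, the calcium channel gene, was at 4.97, 5.23 and 5.70 FPKM in control, at 9.83, 11.7 and 10.9 FPKM in hypoxia and at 9.81, 9.39 and 10.0 FPKM in hypoxia + rSRGN. All hypoxic libraries were again above control, with a log2 fold change of 1.03 ± 0.08 (SE) and an adjusted p of 2.12e-10. Cd63, a tetraspanin of late endosomes and exosomes, was at 95.4, 92.3 and 91.8 FPKM in control, at 200, 321 and 208 FPKM in hypoxia and at 178, 182 and 179 FPKM in hypoxia + rSRGN. The groups did not overlap, hypoxia replicate 2 stood far above the other hypoxic libraries, and the log2 fold change was 1.38 ± 0.12 (SE). Cln3 and Scarb2 were not called, at 0.40 and -0.10 on the log2 scale, the latter at -0.07 without hypoxia replicate 3.

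The proteases split into a large group that rose and a single strong fall. Of the 10, 7 rose, 1 fell and 2 were not called. Ctsd was at 249, 265 and 249 FPKM in control, at 392, 342 and 426 FPKM in hypoxia and at 411, 406 and 425 FPKM in hypoxia + rSRGN. The control libraries were the lowest 3, but the log2 fold change of 0.60 ± 0.08 (SE) lay just above the 1.5-fold limit of 0.58, and the call was lost without control replicate 1, control replicate 3 or hypoxia replicate 3, at 0.57, 0.58 and 0.53. Of its exon bases, 34.4% also belong to another gene on the same strand, where fragments could be assigned to neither. Ctsz, the gene of the carboxypeptidase cathepsin Z, was at 59.1, 61.0 and 60.2 FPKM in control, at 158, 201 and 164 FPKM in hypoxia and at 138, 135 and 150 FPKM in hypoxia + rSRGN. The 3 groups were fully apart, with hypoxia highest, and the rise in hypoxia was 1.54 ± 0.08 (SE) on the log2 scale.

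Ctsl, which encodes the cysteine protease cathepsin L, was at 82.7, 83.8 and 84.7 FPKM in control, at 200, 205 and 224 FPKM in hypoxia and at 194, 190 and 203 FPKM in hypoxia + rSRGN. The hypoxic groups overlapped each other and lay far above control, with a log2 fold change of 1.32 ± 0.07 (SE). Ctsh, the gene of cathepsin H, was at 9.40, 8.66 and 7.5 FPKM in control, at 19.9, 21.9 and 22.1 FPKM in hypoxia and at 18.3, 19.1 and 19.7 FPKM in hypoxia + rSRGN, and it also rose by 1.32 ± 0.08 (SE) on the log2 scale. Ctsk, Tpp1 and Ctsa rose by 1.17, 0.96 and 0.90. Ctsb, the gene of cathepsin B, was at 105 to 113 FPKM in control and 101 to 118 FPKM in hypoxia, and the interval of its difference was -0.16 to 0.15 on the log2 scale. Ctsf was not called, at -0.32.

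Ctss went the other way. It encodes cathepsin S, a cysteine protease known for its abundance in macrophages and other antigen-presenting cells. It was at 38.7, 35.7 and 37.2 FPKM in control, at 1.82, 2.68 and 1.02 FPKM in hypoxia and at 3.64, 2.41 and 2.41 FPKM in hypoxia + rSRGN. The control libraries were high and all 6 hypoxic libraries low, the latter on 24 to 83 counts per library against 1045 to 1171 in control. The gene fell by 4.33 ± 0.19 (SE) on the log2 scale, which is 20.2-fold, with an adjusted p of 4.51e-15. The summed macrophage markers were lower in the same libraries, at 15.4 to 18.1 FPKM in hypoxia against 167 to 176 in control, and their part in the fall of Ctss was not tested. Lyz2, the most abundant of these markers, fell by 3.67 on the log2 scale.

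Grn rose and Psap was not called. Grn (chr11:102430315-102437048, plus strand, in the deposited annotation) was at 74.5, 79.0 and 71.4 FPKM in control, at 125, 138 and 136 FPKM in hypoxia and at 129, 127 and 139 FPKM in hypoxia + rSRGN. The mean was 75 ± 3.82 FPKM (SD, n = 3) in control, 133 ± 7.15 FPKM (SD, n = 3) in hypoxia and 132 ± 6.23 FPKM (SD, n = 3) in hypoxia + rSRGN. All 6 hypoxic libraries lay above control and the hypoxic groups overlapped. The rise in hypoxia was 1.77-fold, or 0.83 ± 0.07 (SE) on the log2 scale, with an adjusted p of 9.17e-10. Psap, the gene of the precursor of the saposins, which help hydrolases to reach sphingolipids, was at 265, 280 and 268 FPKM in control and at 324, 387 and 353 FPKM in hypoxia. These groups did not overlap, but the difference of 0.39 was below the fold limit.

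The glycosidases, which trim sugars from glycoproteins, glycolipids and glycosaminoglycans, rose in 8 of 10 genes and fell in none. Hexa, the gene of the alpha subunit of beta-hexosaminidase, was at 46.1, 47.2 and 47.3 FPKM in control, at 134, 166 and 147 FPKM in hypoxia and at 131, 131 and 141 FPKM in hypoxia + rSRGN. The hypoxic libraries were all well above control, and its rise of 1.67 ± 0.08 (SE) on the log2 scale, or 3.18-fold, was the largest of the 49 genes. Gla, Gaa, Neu1, Gusb, Naglu, Fuca1 and Glb1 rose by 1.01 to 0.62 in that order. The interval of Man2b1 was 0.16 to 0.46 and that of Manba -0.39 to 0.01, and neither was called. Manba was at -0.19, and at -0.09 without hypoxia replicate 3.

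Of the 4 sulfatase genes 2 rose and none fell, and of the 4 lipid hydrolase genes 2 rose and 1 fell. The share of sulfatase genes called, 50%, was near the 51.6% of all genes tested. Arsa, whose product arylsulfatase A removes sulfate from sulfatides, was at 11.3, 12.9 and 12.3 FPKM in control, at 31.6, 30.1 and 33.6 FPKM in hypoxia and at 31.5, 30.2 and 36.7 FPKM in hypoxia + rSRGN. Control was low in all 3 libraries, and the rise was 1.38 ± 0.08 (SE) on the log2 scale. Arsb rose by 0.62, and Sgsh and Galns were not called, with intervals of -0.15 to 0.23 and -0.14 to 0.35. With a library left out, Galns ran from 0.01 without control replicate 2 to 0.19 without control replicate 3. Of the 4 lipid hydrolases, Asah1, the gene of acid ceramidase, rose by 1.14 and Ppt1 by 0.61, while Lipa, the gene of lysosomal acid lipase, was not called at 0.54 but passed the limit with library size alone, at 0.61. Smpd1, whose product acid sphingomyelinase makes ceramide from sphingomyelin, was at 29.6, 32.4 and 30.3 FPKM in control, at 17, 14.9 and 15.2 FPKM in hypoxia and at 14.9, 16.7 and 17.4 FPKM in hypoxia + rSRGN. All hypoxic libraries lay below control, and the gene fell by 0.97 ± 0.08 (SE) on the log2 scale. The calls of Glb1, Ppt1, Arsb and Atp6v1h, the last at 0.66 and the others below it, were each lost when at least 1 library was left out: Glb1 without control replicate 1 or hypoxia replicate 2, Ppt1 and Arsb without control replicate 2 or hypoxia replicate 2, and Atp6v1h without control replicate 3. When every gene with 1 or more counts over the 9 libraries was kept, Glb1, Ppt1, Arsb and Ctsd were not called, at 0.56, 0.56, 0.56 and 0.55.

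Of the 3 transcription factor genes, 2 fell and none rose. Tfeb was at 4.87, 5.50 and 4.81 FPKM in control, at 2.07, 1.82 and 2.61 FPKM in hypoxia and at 1.94, 1.76 and 2.00 FPKM in hypoxia + rSRGN. Control was above every hypoxic library, and Tfeb fell by 1.22 ± 0.12 (SE) on the log2 scale, or 2.34-fold, with an adjusted p of 8.74e-09. Mitf was at 11.5, 10.4 and 11.1 FPKM in control, at 1.70, 1.55 and 1.34 FPKM in hypoxia and at 2.27, 2.18 and 2.07 FPKM in hypoxia + rSRGN. The 3 groups were apart, and Mitf fell by 2.85 ± 0.11 (SE) on the log2 scale, or 7.19-fold, with an adjusted p of 3.97e-16. Tfe3 was at 3.57, 3.68 and 3.62 FPKM in control, at 5.58, 5.09 and 5.48 FPKM in hypoxia and at 5.44, 4.88 and 5.82 FPKM in hypoxia + rSRGN. Every hypoxic library was above control, but its log2 fold change of 0.57, with an interval of 0.39 to 0.75, lay just under the fold limit of 0.58 and was not called. It passed the limit with library size alone, with thinned libraries and without hypoxia replicate 2, at 0.64, 0.59 and 0.61. Counts measure the amount of these transcripts, not where the proteins are in the cell.

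Of the 4 sorting genes, 3 fell and none rose. Sort1, the gene of the sorting receptor sortilin, which binds progranulin, was at 14.3, 16 and 15.4 FPKM in control, at 4.95, 4.86 and 3.52 FPKM in hypoxia and at 7.45, 6.69 and 6.22 FPKM in hypoxia + rSRGN. The 3 groups were fully apart with hypoxia lowest, and Sort1 fell in hypoxia by 1.77 ± 0.10 (SE) on the log2 scale, with an adjusted p of 1.03e-12. Igf2r, the gene of the large mannose 6-phosphate receptor, was at 46.2, 55.7 and 54.8 FPKM in control, at 32.5, 27.9 and 25.4 FPKM in hypoxia and at 44.3, 46.9 and 41.3 FPKM in hypoxia + rSRGN. Hypoxia was lowest in all 3 libraries, hypoxia + rSRGN overlapped control, and Igf2r fell in hypoxia by 0.87 ± 0.09 (SE) on the log2 scale. Gnptab, the gene of the phosphotransferase that starts the mannose 6-phosphate tag, fell by 0.84, and M6pr, the gene of the small mannose 6-phosphate receptor, was not called at 0.46.

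Of the 6 proton pump genes, 4 rose and none fell. Atp6v0d1, a subunit of the membrane sector, rose by 1.17, from 37.9 to 40.1 FPKM in control to 85.4 to 92.1 FPKM in hypoxia. The accessory subunit genes Atp6ap2 and Atp6ap1 rose by 1.08 and 0.69, and Atp6v1h by 0.66. The catalytic subunit gene Atp6v1a and Atp6v0a1 were not called, at 0.24 and -0.11, the latter at -0.17 without hypoxia replicate 2.

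**Figure D4:**
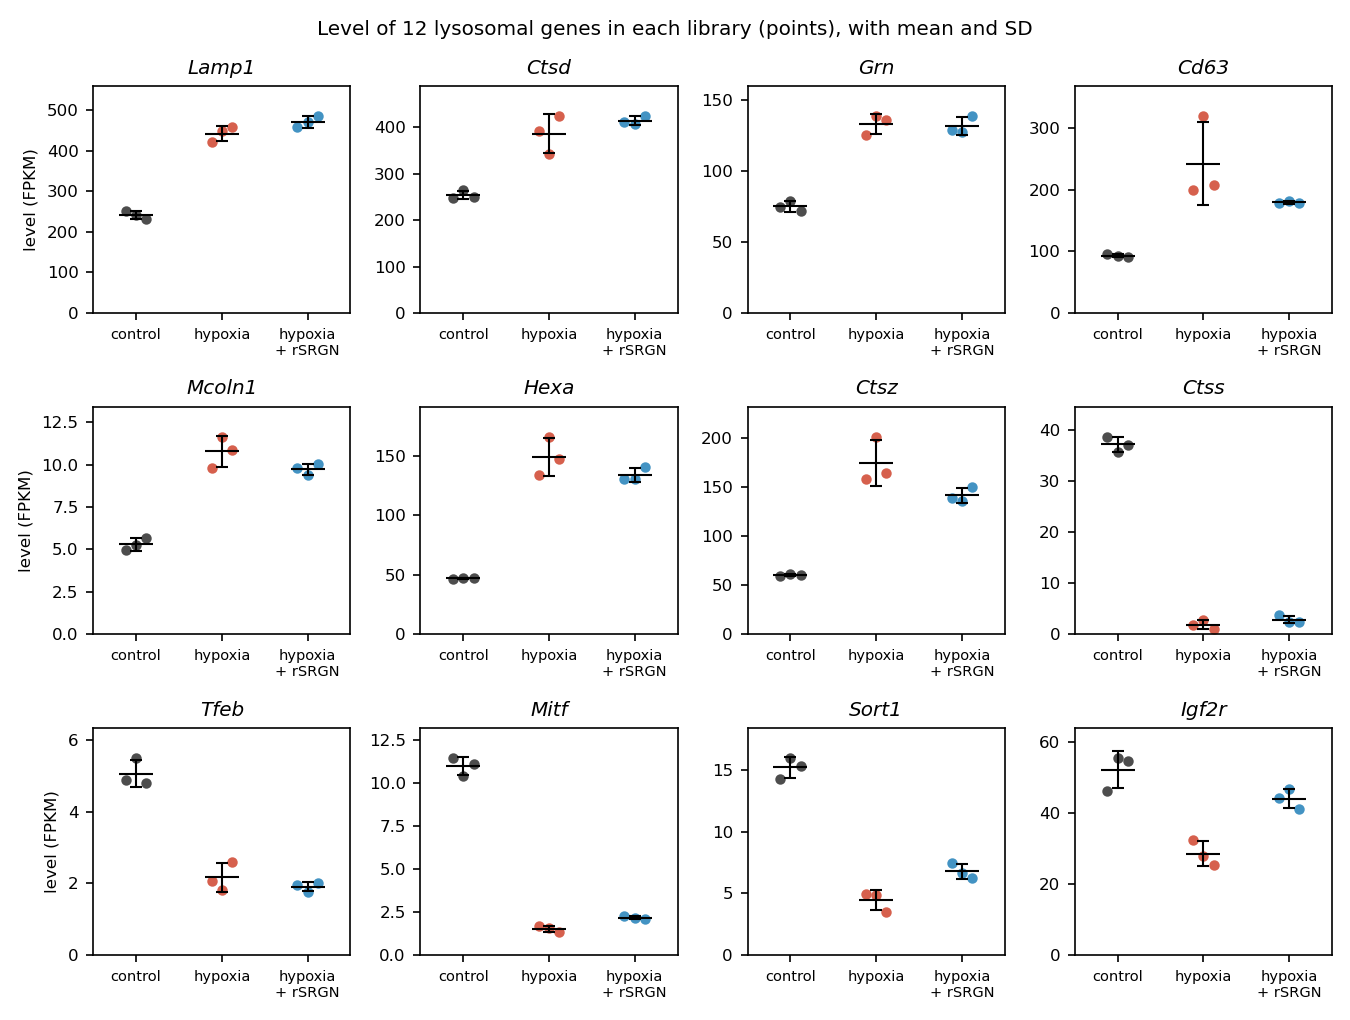
Level in FPKM of 12 lysosomal genes in each library (points), with the mean (long bar) and SD (error bar) of the 3 libraries of each group, on axes that start at 0. Control is the lowest group for Lamp1, Ctsd, Grn, Cd63, Mcoln1, Hexa and Ctsz and the highest for Ctss, Tfeb, Mitf, Sort1 and Igf2r by group mean. The mean of hypoxia + rSRGN lies between those of hypoxia and control for Grn, Cd63, Mcoln1, Hexa, Ctsz, Ctss, Mitf, Sort1 and Igf2r, and beyond that of hypoxia for Lamp1, Ctsd and Tfeb.

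Genes with a long or short E-box core in their promoter window were compared with those without, as a description. Of the 8 genes with a long core, 5 rose, 1 fell and 2 were not called, and the median log2 fold change was 0.75. Of the 34 genes with a window but no long core, 19 rose, 5 fell and 10 were not called, with a median of 0.62. Of the 16 with a short core, 11 rose and 1 fell, with a median of 0.81, against 13 and 5 of the other 26, with a median of 0.59. Igf2r, which fell, held a pair of long cores that began 49 and 8 bases before its start, and Hexa, which rose most, had none. No test was made of this difference.

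**Figure D5:**
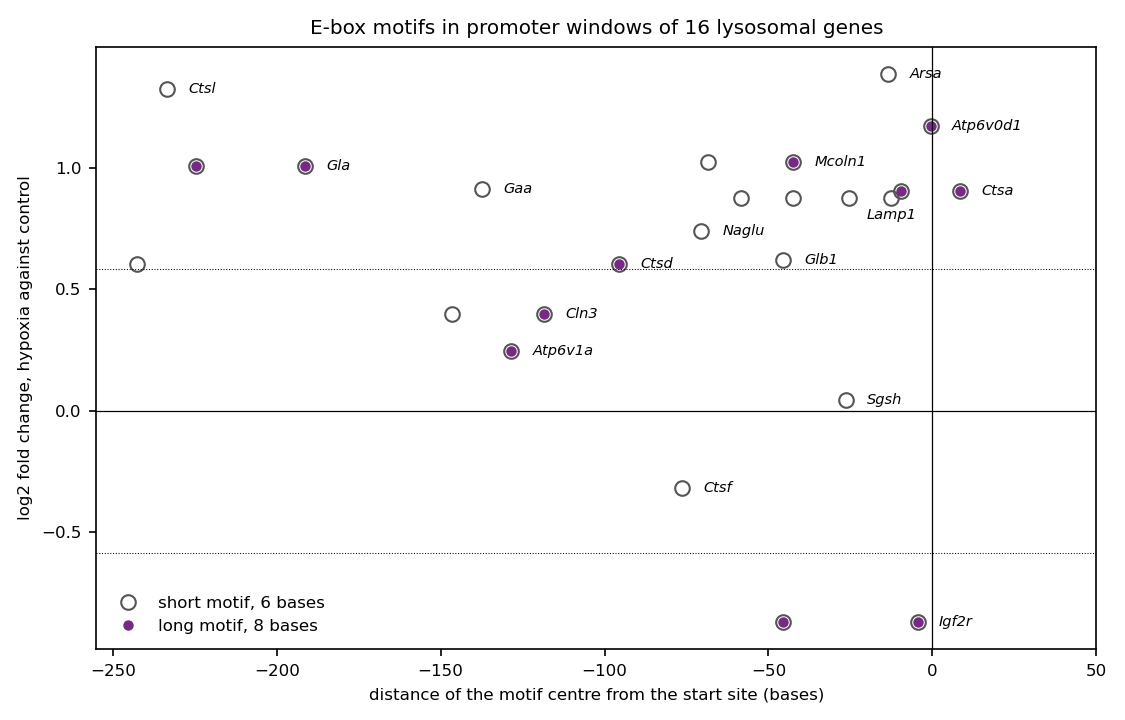
Distance of each E-box core from the RefSeq transcription start (x axis, bases) and log2 fold change in hypoxia against control (y axis) for the 16 lysosomal genes with a short core, with filled points where the core is the long form and dotted lines at a 1.5-fold change. Genes with a core lie from Igf2r at -0.87 to Arsa at 1.38, and the cores are spread over the window.

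A further 65 lysosomal genes were measured beside the 49. In hypoxia, 21 (32.3%) rose, 4 (6.15%) fell and 40 were not called, and their median was 0.33 on the log2 scale. Among all genes tested, 26.4% were called higher and 25.1% lower, with a median of 0.05, so the share of these 65 genes called in either direction (38.5%) was below the 51.6% of all genes and the share called higher was near that of all genes. The largest rises were those of Npc2, a cholesterol carrier of the lumen, by 1.79, of Tfec, a relative of Tfeb, by 1.61, of Tcirg1, a proton pump subunit, by 1.53, and of Aga, which cleaves asparagine-linked sugars, by 1.48. Rragd, a GTPase that helps mTOR act at the lysosome, was at 29.3, 28.8 and 26.1 FPKM in control, at 4.98, 4.66 and 4.32 FPKM in hypoxia and at 9.11, 8.81 and 8.40 FPKM in hypoxia + rSRGN. The 3 groups were apart, and Rragd fell in hypoxia by 2.59 ± 0.08 (SE) on the log2 scale. Mtor itself fell by 1.25, Ctsc, the gene of cathepsin C, by 1.16, and Abca2, a lipid transporter, by 1.06.

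Hypoxia + rSRGN against hypoxia differs, as far as the labels say, in the added protein alone. Of the 49 genes, 2 (4.08%) rose and none fell, against 2.27% called higher, 0.859% lower and 3.13% in either direction among all genes tested, so the share of lysosomal genes called was near that of all genes. The median log2 fold change of the 49 genes was close to 0, as it was over all genes tested (-0.03). For 44 of the 49 genes, the 95% interval of the difference lay within a 1.5-fold change in either direction, while without the fold limit 10 of the 49 (20.4%) had an adjusted p below 0.05, against 16.6% of all genes tested, which is a share near the background.

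The genes that rose were Igf2r and Sort1, both sorting receptors. Igf2r rose by 0.63 ± 0.09 (SE) on the log2 scale, with an adjusted p of 0.000137, and Sort1 by 0.61 ± 0.11 (SE), with an adjusted p of 0.000594. In each gene the 3 hypoxia + rSRGN libraries lay above the 3 hypoxia libraries in the values given above. The same held for 2770 of the 16762 genes tested. Both calls stood just above the fold limit of 0.58 and both were lost without hypoxia replicate 3, at 0.55 for Igf2r and 0.47 for Sort1. That of Sort1 was also lost without hypoxia + rSRGN replicate 1, at 0.54, and that of Igf2r without hypoxia + rSRGN replicate 2, at 0.58. These are genes that fell in hypoxia against control, and the comparisons share the hypoxia libraries. Of the 10 cardiomyocyte markers, 9 rose in the same comparison, with a median of 0.78, and their part in these changes was not tested.

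Of the remaining 47 genes, 8 passed the adjusted p but not the fold limit, and with the 2 called genes they make up the 10 above, a share near that of all genes. Mitf was 0.50 higher with rSRGN, and 0.59 and called without hypoxia replicate 1. The others above 0 were Manba at 0.34, Atp6v1a at 0.27, Lipa at 0.23 and Scarb2 at 0.21, all on the log2 scale. Cd63 was at -0.43, Ctsf at -0.35 and Ctsz at -0.31, and without hypoxia replicate 2 Cd63 was at -0.18 and Ctsz at -0.19. Grn was at -0.01, with an interval of -0.16 to 0.13, and Lamp1 at 0.09, with an interval of -0.05 to 0.24, and at 0.06 without hypoxia replicate 1. Tfeb was at -0.19, with an interval of -0.46 to 0.08, and leaving out hypoxia replicate 3 brought it to -0.03 and leaving out hypoxia replicate 2 to -0.29. Ctss, the least precise of the 49, was at 0.60, with an interval of 0.12 to 1.08 and an adjusted p of 0.0839. The value of Ctss turned on single libraries, with a call at 0.96 without hypoxia replicate 2, 0.32 without hypoxia replicate 3 and 0.39 without hypoxia + rSRGN replicate 1. Of the 65 other lysosomal genes only Rragd was called, with a rise of 0.91 ± 0.08 (SE) and an adjusted p of 4.98e-06.

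Hypoxia + rSRGN against control gave 27 genes higher and 7 lower of the 49, against 24.1% higher, 24.7% lower and 48.8% in either direction of all genes tested. This comparison shares its control libraries with that of hypoxia, so the values are given side by side and not as a repeat. The median log2 fold change was 0.62, against 0.01 over all genes tested. Grn was 0.81 above control, against 0.83 without rSRGN, and Hexa 1.52 against 1.67. Lipa was called at 0.77 and Ctsf at -0.67, whereas Glb1 at 0.51 and Igf2r at -0.24 were not. The call of Gusb, at 0.59, was lost without control replicate 3, hypoxia + rSRGN replicate 2 or hypoxia + rSRGN replicate 3, at 0.56, 0.58 and 0.56, and that of Gnptab, at -0.61, without control replicate 1, at -0.55. Gnptab was also not called with library size alone, at -0.57, nor Gusb with thinned libraries, at 0.58. When every gene with 1 or more counts over the 9 libraries was kept, Gusb, Fuca1 and Ppt1 were not called, at 0.55, 0.58 and 0.57. Tfe3, at 0.57 and not called, passed the limit with library size alone, with thinned libraries, when only these 2 groups were fitted and without hypoxia + rSRGN replicate 2, at 0.62, 0.60, 0.59 and 0.64. Sort1 stayed below control at -1.17, Tfeb at -1.41, Mitf at -2.34 and Ctss at -3.73. Of the 65 other lysosomal genes, 20 were called higher and 4 lower than control.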

How the data were processed

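Per the labels, poly(A)-enriched RNA of 9 NMVM cultures was sequenced on an Illumina NovaSeq, and HISAT2, featureCounts and the mm10 build are named in the submitters' processing notes. The authors deposited whole-number counts of fragments per gene, without normalization, made with featureCounts 2.0.1 on exons of GENCODE mouse release 25 and with no strand option. Of the 49 genes, 17 share exon bases with another gene, 15 of them with a gene on the other strand, and 7 share over 10% of their bases. Fragments there can be lost or misassigned. All 9 count columns entered the fit, and 0 columns stayed unused. Each library was placed in its group by its label.

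Differential expression was tested in edgeR 4.0.16 (R 4.3.3). After filterByExpr and TMM scaling, 1 model with a mean for each group was fitted to the 9 libraries together. Comparisons used the quasi-likelihood test, and p-values were adjusted by Benjamini-Hochberg over the 16762 genes tested. Calls needed both an adjusted p below 0.05 and a change of 1.5-fold or more. The SE is the log2 fold change divided by the square root of the F statistic. FPKM values were computed from the counts, the deposited exon length and the TMM-scaled library size, and TPM by rescaling within a library. The step was tested on simulated data, where it called 147 of 200 genes changed 2-fold, with 7 wrong calls, for hypoxia against control, and 147 with 1 wrong call for hypoxia + rSRGN against hypoxia. Only those 200 of 16762 genes differed in each simulation, whereas 51.6% of genes were called in hypoxia against control. The simulated error counts therefore cannot be carried over to that comparison.

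The 49 genes, the 65 other lysosomal genes and the marker lists were chosen with earlier results of these data known, and no test was made over a list. Values per library are given for Grn, Lamp1, Lamp2, Ctsd, Tfeb, Tfe3, Mitf and Mcoln1, for the 6 largest rises and 6 largest falls among the genes called in hypoxia against control, and for the genes called with rSRGN. Of the other lysosomal genes, up to 4 rises and 4 falls are named per comparison. Replicate numbers share no stated origin. The deviations of same-numbered libraries from their group means correlated at -0.037 to 0.021 across genes, so no pairing was used. Replicates of a group differed by more than sampling noise, with a chi-square per degree of freedom of 3.70 to 13.9. Alternatives were RLE scaling, library size alone, filters of at least 1 count in all libraries together or 10 counts in every library, DESeq2 1.42.0, only the groups compared, a replicate block, no fold limit, the unadjusted p, thinned libraries, and each library left out. The aligner settings are not given in the sources used here. Figures were drawn with matplotlib 3.10.9.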

Additional observations from a re-analysis of the deposited data

How the results depend on the processing

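In hypoxia against control, 30 to 43 of the 49 lysosomal genes were called under the alternatives and 32 to 34 with a library left out (34 in the fit reported). The 43 came without a fold limit and make 87.8% of the 49 genes, against 70.9% of all genes tested. The median log2 fold change of the 49 genes was 0.68 with library size alone, where the median of all genes was 0.12 against 0.05. It was 0.56 with a filter of at least 1 count, and 0.59 to 0.65 with a library left out. For hypoxia + rSRGN against control the values were 31 to 44 called, 33 to 34 with a library left out, and medians of 0.67, 0.58 and 0.60 to 0.66, the last without hypoxia + rSRGN replicate 1. The 44, also without a fold limit, make 89.8% of the 49 genes, against 68.6% of all genes tested. For hypoxia + rSRGN against hypoxia, 2 genes were called under every alternative that kept all libraries except the filter of at least 1 count and the unadjusted p, which added Ctss, and the test without a fold limit, which gave 10. With a library left out, 0 to 3 were called: 0 without hypoxia replicate 3, 1 without hypoxia + rSRGN replicate 1 or replicate 2, and 3 without hypoxia replicate 1, where Mitf was added at 0.59, or hypoxia replicate 2, where Ctss was added at 0.96. The median was -0.03 to 0.04. Without a fold limit, 49, 13 and 46 of the 65 other lysosomal genes passed, in the order hypoxia over control, rSRGN over hypoxia and rSRGN over control, which is 75.4%, 20.0% and 70.8% of them against 70.9%, 16.6% and 68.6% of all genes tested. With the fold limit 25, 1 and 24 of them were called, and 24 to 27, 1 and 24 to 25 with a library left out. With RLE scaling or DESeq2, Ctsd was not called in hypoxia against control, at 0.58. A replicate block gave 34, 2 and 34 of the 49 genes in the same order and medians of 0.61, 0.001 and 0.62. The numbers pair no libraries by any stated origin. Over 2793 single-gene values under the alternatives, 72 changed sign, none of them called under either setting. The 2793 include the values without a fold limit and with the unadjusted p, which are those of the fit reported and could not change sign. Ctss rested on 24 to 63 counts per hypoxia library, and its log2 difference with rSRGN had an SE of 0.23, against a median of 0.08 over the 49 genes. The parts of low counts and of spread between libraries in this SE were not tested.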
